A study of Mus musculus with 16 samples.

Results

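The vascular endothelial growth factor (VEGF) family was examined by RNA sequencing of tail tendon fascicles from mice. Fascicles are the fine collagen bundles that make up the tail tendons. The family was taken as 10 genes fixed by name, found by symbol among the 25719 genes of the count files: the ligands Vegfa, Vegfb, Vegfc, Vegfd and Pgf, the receptors Flt1, Kdr and Flt4, and the coreceptors Nrp1 and Nrp2. All 10 were in the files. The study compared 8 libraries of wild type fascicles (WT 1 to 8) with 8 libraries of ScxCre;Vhlf/f fascicles (KO 1 to 8), and its title asks how HIF1α acts in tendon and whether this depends on vessel recruitment. In the knockout, Cre under the control of Scx, a gene of the tendon lineage, removes a floxed part of Vhl, so cells outside that lineage keep the gene as far as the driver is inactive in them. The labels give no treatment, age or sex, and list the cell type as the whole tissue. They do not say whether each library came from a separate animal, so p-values measure the spread between these libraries.

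VEGF ligands are secreted by many cells and act through tyrosine kinase receptors that sit mostly on endothelial cells. VEGF-A binds VEGFR1 (Flt1) and VEGFR2 (Kdr), and VEGF-B and placental growth factor (Pgf) bind VEGFR1. VEGF-C and VEGF-D bind VEGFR3 (Flt4), and VEGF-C, once cleaved, also binds VEGFR2. Neuropilins bind both VEGFs and class 3 semaphorins. The product of Vhl marks the hypoxia-inducible factors (HIFs) for degradation as part of a ubiquitin ligase, and Vegfa is among the best known genes that HIFs switch on.

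For each member, the 250 bases upstream of the most upstream RefSeq start were taken (build GRCm38.p6). Vegfa and Pgf had 2 RefSeq starts each, and their other start was not used. The windows were searched on both strands for ACGTG and GCGTG, the core letters of HIF binding sites. On the other strand these read CACGT and CACGC. The 4 windows below belong to the ligands and tested receptors with the largest differences between genotypes, and capitals mark a match.
Vegfa: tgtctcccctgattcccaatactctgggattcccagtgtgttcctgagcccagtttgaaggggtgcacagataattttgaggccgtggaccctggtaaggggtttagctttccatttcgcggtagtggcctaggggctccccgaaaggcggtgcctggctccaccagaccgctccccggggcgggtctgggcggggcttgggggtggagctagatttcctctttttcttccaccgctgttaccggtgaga
Vegfd: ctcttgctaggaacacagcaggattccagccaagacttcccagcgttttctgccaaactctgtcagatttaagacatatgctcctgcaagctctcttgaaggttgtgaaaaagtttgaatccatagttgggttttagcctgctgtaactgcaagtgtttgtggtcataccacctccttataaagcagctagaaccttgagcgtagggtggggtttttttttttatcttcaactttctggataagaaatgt
Flt1: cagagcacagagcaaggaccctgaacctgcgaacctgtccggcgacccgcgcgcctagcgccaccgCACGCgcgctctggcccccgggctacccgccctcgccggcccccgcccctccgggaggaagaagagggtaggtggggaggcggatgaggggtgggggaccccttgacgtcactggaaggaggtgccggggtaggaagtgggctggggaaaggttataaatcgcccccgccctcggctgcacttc
Kdr: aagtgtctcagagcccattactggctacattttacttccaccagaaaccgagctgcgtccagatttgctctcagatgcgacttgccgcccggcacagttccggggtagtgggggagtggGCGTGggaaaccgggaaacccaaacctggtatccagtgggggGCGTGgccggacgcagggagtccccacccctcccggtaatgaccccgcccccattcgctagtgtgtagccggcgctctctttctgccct
The Vegfa window is chr17:46032378-46032627 on the minus strand, and the Vegfd window is chrX:164373272-164373521 on the plus strand. The Flt1 window is chr5:147726012-147726261 and the Kdr window is chr5:75978456-75978705, both on the minus strand. Vegfa and Vegfd held neither motif here. Flt1 held 1 GCGTG match, 184 bases upstream of the start, and Kdr held 2, at 131 and 89 bases upstream. Of the 10 members, 6 held GCGTG (Vegfb, Pgf, Flt1, Kdr, Nrp1 and Nrp2) and 0 held ACGTG. Of 27018 windows of the same length, 28.3% held GCGTG, 16.5% held ACGTG and 38.6% held either. These are matches of letters only, and for Vegfa the well described hypoxia response element lies farther upstream than this window.

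Library depth ran from 10488355 to 18753254 counts. Levels are CPM, counts relative to library sizes that were scaled by the trimmed mean of M-values (TMM), given as mean ± SD over 8 libraries. Vhl was between 14.1 and 25.8 CPM in the wild type and between 7.51 and 10.9 CPM in the knockout, so every library followed its label on the targeted gene. Some libraries stood apart in other genes. Summed skeletal muscle markers (15 genes) ran from 54.8 to 4602 CPM in the wild type and from 151 to 8844 CPM in the knockout, where KO 6, 7 and 8 each had at least 6612 CPM and the other 5 had at most 1163. Scx was at 479 to 1251 CPM in KO 5, 6 and 8 and 1033 CPM in WT 8, and at most 140 CPM elsewhere. Y-linked transcripts were found in WT 7 and 8 and KO 1 and 6. Of the 9 tenocyte markers, 6 fell and none rose (median -0.91), where 22.7% of all tested genes fell. The type I collagen gene Col1a1 was at 153493 ± 45287 CPM in the wild type and 79643 ± 24142 CPM in the knockout.

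Of the 10 members, 9 passed the expression filter and were tested. In the knockout 6 rose (Vegfa, Vegfd, Pgf, Vegfb, Flt1 and Kdr), 2 fell (Vegfc and Nrp2), and Nrp1 did not pass the threshold of an adjusted p of 0.05. Over all 14803 tested genes, 48.3% passed, 25.6% as higher and 22.7% as lower. The median log2 fold change was 1.03 over the 9 members and 0.02 over all tested genes. For Vegfa and Vegfd alone, every knockout library exceeded every wild type library, which held for 10.8% of all tested genes. Another 8.61% of tested genes were lower without overlap, and no member was among them. Without KO 6, 7 and 8, the libraries richest in muscle markers, 6 members again rose and 2 fell, with Nrp1 in place of Nrp2.

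**Figure D1:**
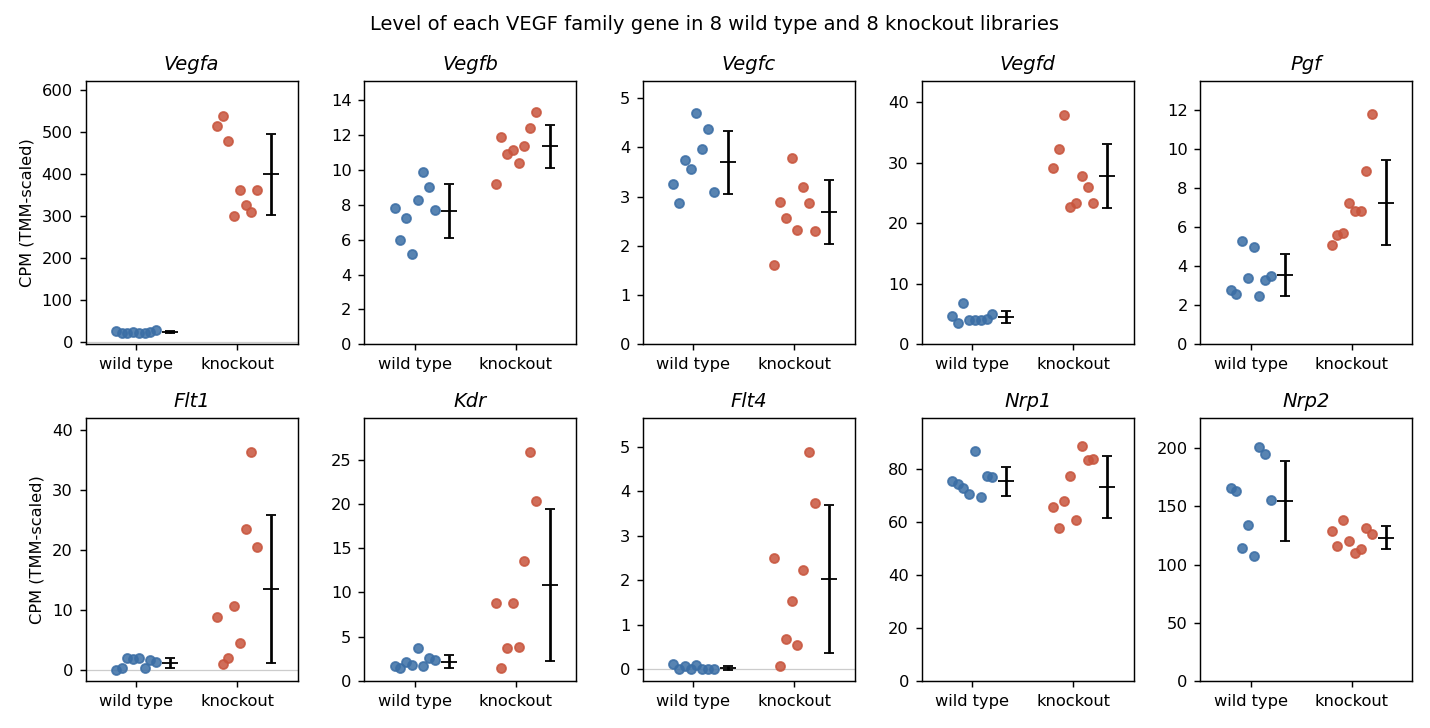
Level of the 10 VEGF family genes in CPM (y axis, a separate scale per gene, starting at or below 0) in 8 wild type and 8 knockout libraries. Points are libraries, and the dash with bars is the mean and SD. Vegfa and Vegfd separate fully, whereas Flt1, Kdr and Flt4 are spread from the wild type level upward in the knockout.

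Vegfa, which encodes the main growth factor for blood vessels, was between 21.6 and 29.9 CPM in the wild type, with a median of 23.3. In the knockout it was between 302 and 539 CPM, with a median of 362. The lowest knockout library was thus far above the highest wild type library. The means were 24.3 ± 2.78 and 399 ± 96.5 CPM, so Vegfa rose 16.4-fold, with a log2 fold change of 4.04 (SE 0.139; edgeR quasi-likelihood test, Benjamini-Hochberg adjusted p = 2.16e-14). Among knockout libraries, KO 1, 2 and 3 had the highest levels, at 516, 539 and 478 CPM, and the other 5 were between 302 and 362 CPM.

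Vegfd encodes a ligand of VEGFR3. It was between 3.48 and 6.87 CPM in the wild type (median 4.11) and between 22.7 and 37.8 CPM in the knockout (median 26.9). The groups did not overlap, and WT 3 was the highest wild type library. The means were 4.51 ± 1.05 and 27.8 ± 5.21 CPM, and Vegfd rose 6.15-fold (log2 fold change 2.62, SE 0.137; edgeR, adjusted p = 8.35e-12).

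Pgf, the placental growth factor gene, was between 2.45 and 5.31 CPM in the wild type (median 3.35) and between 5.10 and 11.8 CPM in the knockout (median 6.83). Only KO 1 lay within the wild type range. The log2 fold change was 1.03 (SE 0.193; edgeR, adjusted p = 0.000181), or 2.05-fold. Vegfb, whose product also binds VEGFR1, was between 5.16 and 9.87 CPM in the wild type (median 7.79) and between 9.23 and 13.3 CPM in the knockout (median 11.3). It rose 1.49-fold (log2 fold change 0.57, SE 0.118; edgeR, adjusted p = 0.000479), again with KO 1 as the only knockout library inside the wild type range.

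Vegfc, the chief lymphatic growth factor, was the ligand that fell. It was between 2.87 and 4.71 CPM in the wild type (median 3.65) and between 1.62 and 3.78 CPM in the knockout (median 2.71), with 5 knockout libraries below all wild type libraries. The log2 fold change was -0.45 (SE 0.158; edgeR, adjusted p = 0.0232), on 20 to 63 counts per library. The call was lost with libraries scaled to total counts (-0.15, edgeR adjusted p = 0.456), without WT 5 (-0.40, adjusted p = 0.0505) and with an endothelial marker score as a covariate (-0.63, adjusted p = 0.154). Scaling to total counts moved the median of all tested genes from 0.02 to 0.32.

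Levels of different genes were compared per kilobase of exon (CPM per kb). In the wild type the ligand order was Vegfa at 5.68 ± 0.649, Vegfb at 4.76 ± 0.956, Vegfd at 1.87 ± 0.434, Vegfc at 1.51 ± 0.259 and Pgf at 1.22 ± 0.368 CPM per kb. The ranges of Vegfa and Vegfb overlapped, as did those of Vegfd and Vegfc and of Vegfc and Pgf. In the knockout Vegfa stood at 93.2 ± 22.5 CPM per kb and Vegfd at 11.6 ± 2.16, ahead of Vegfb at 7.07 ± 0.778. Vegfa made up 37.9% ± 4.68 of the summed ligand level per kb in wild type libraries and 80.2% ± 3.41 of it in knockout libraries. Over the same sum Vegfb went from 31.5% ± 4.66 to 6.37% ± 1.54 and Vegfd from 12.4% ± 2.43 to 10.1% ± 1.27. A larger share of one ligand lowers the shares of the rest, although Vegfb itself rose.

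**Figure D2:**
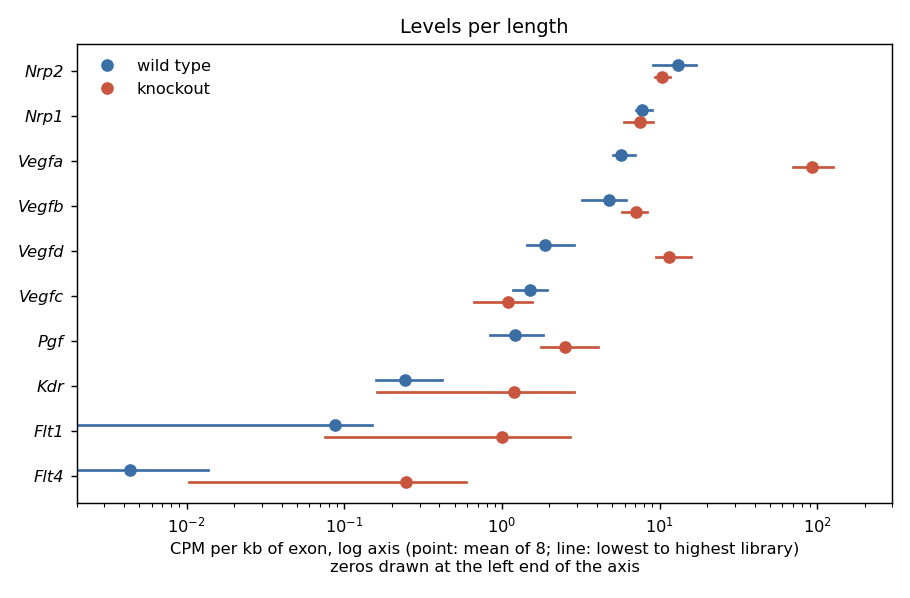
Mean level per kb of exon (x axis, CPM per kb, log scale) of the 10 genes, with lines from the lowest to the highest library in each genotype. Vegfa moves from below the neuropilins in the wild type to the top of the order in the knockout, at 93.2 CPM per kb.

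The receptors were the lowest members per kb in the wild type. Kdr stood at 0.242 ± 0.0817 CPM per kb, Flt1 at 0.0872 ± 0.0615 and Flt4 at 0.00435 ± 0.00610. The endothelial receptors rose in the knockout, but unevenly over the libraries, and KO 2 stayed within the wild type range for both Flt1 and Kdr.

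Flt1 encodes VEGFR1, which binds VEGF-A tightly and signals weakly. It was between 0 and 2.03 CPM in the wild type (median 1.47) and between 1.02 and 36.5 CPM in the knockout (median 9.84). Wild type counts were low, with 0 in WT 1, 4 in WT 2 and WT 6, and 14 to 27 in the others. KO 7, 6 and 8 were highest, at 36.5, 23.6 and 20.5 CPM, KO 3 at 2.05 CPM was barely above the wild type, and KO 2 was inside its range. The log2 fold change was 3.50 (SE 0.737, 95% interval 1.93 to 5.08; edgeR, adjusted p = 0.00105). Kdr encodes VEGFR2, the main signalling receptor for VEGF-A. It was between 1.44 and 3.75 CPM in the wild type (median 2.00) and between 1.45 and 25.8 CPM in the knockout (median 8.83). The order of libraries was similar, with KO 7, 8 and 6 at 25.8, 20.3 and 13.5 CPM, and KO 2 at 1.45 CPM. Kdr rose with a log2 fold change of 2.32 (SE 0.494, 95% interval 1.27 to 3.37; edgeR, adjusted p = 0.00102).

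Flt4 encodes VEGFR3, found on lymphatic endothelium and on sprouting blood vessels. It did not pass the filter, since its wild type libraries held 3 counts in all, at most 1 each. The 8 knockout libraries held 31, 1, 8, 19, 11, 44, 101 and 44 counts, so 7 of them were above the floor of 3 counts. The knockout mean of 2.03 ± 1.67 CPM was at least 7.59-fold higher than the wild type floor, taken per library and averaged to 0.267 CPM. Without the expression filter Flt4 passed the threshold (edgeR, adjusted p = 3.86e-05), as did 38.4% of the genes then tested.

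**Figure D3:**
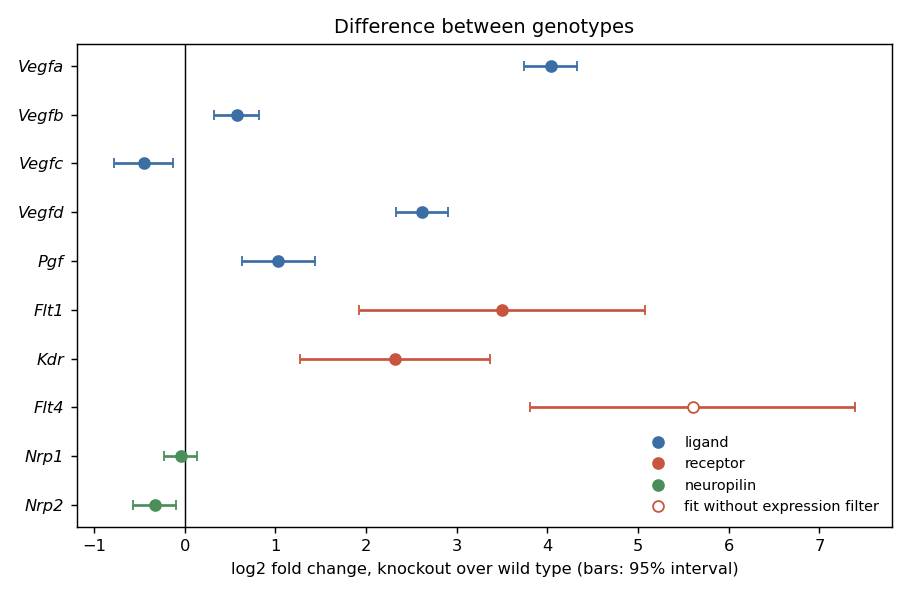
Log2 fold change of each member, knockout over wild type (x axis), with its 95% interval. The interval of Nrp1 spans 0, those of the receptors are the widest, and the open point for Flt4 comes from the fit without an expression filter and depends on the prior count.

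Nrp1 and Nrp2 were the most abundant members per kb in the wild type, at 7.72 ± 0.555 and 13.1 ± 2.91 CPM per kb. Nrp1, a coreceptor for VEGF-A and class 3 semaphorins, was between 69.4 and 87.0 CPM in the wild type (median 75.0) and between 58.0 and 89.0 CPM in the knockout (median 72.7). The ranges overlapped and the log2 difference was -0.04, with a 95% interval from -0.22 to 0.14 (edgeR, adjusted p = 0.703). With total counts the difference was 0.26 (edgeR, adjusted p = 0.0315), where the median of all tested genes was 0.32. Without KO 6, 7 and 8, chosen after their muscle markers were seen, it was -0.20 (edgeR, adjusted p = 0.0423). Nrp2, a coreceptor for VEGF-C, was between 107 and 201 CPM in the wild type (median 159) and between 110 and 138 CPM in the knockout (median 123). All 8 knockout libraries lay inside the wild type range, and the log2 fold change was -0.33 (SE 0.113; edgeR, adjusted p = 0.0222). The call was lost without WT 6 (-0.27, edgeR adjusted p = 0.0524), without WT 7 (-0.27, adjusted p = 0.0502), without KO 6, 7 and 8 (-0.34, adjusted p = 0.0628) and with total counts (-0.0105, adjusted p = 0.930). It was also lost with the muscle score (-0.26, edgeR adjusted p = 0.102) or the endothelial score (-0.32, adjusted p = 0.351) as a covariate.

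Members were set against each other within each library as log2 ratios of CPM. The 13 ratios computed set ligands against receptors, Nrp1 or other ligands, Flt1 against Kdr, Nrp1 against Nrp2, and members against blood endothelial markers, and a further 3 that need Flt4 were left out. Each was tested by a two-sided exact permutation of the genotype labels, with adjustment over the 13 ratios, and the smallest p this allows is 0.000155. Vegfa rose against Kdr by 2.19 (exact permutation test, adjusted p = 0.00173), with 7 of 8 knockout libraries above all wild type libraries. Against Flt1 the difference was 0.92 and did not pass (exact permutation test, adjusted p = 0.310), with ratios of 3.32 to 7.48 in the wild type and 3.08 to 8.85 in the knockout. Vegfa rose against Nrp1 by 4.06, against Vegfb by 3.42 and against Pgf by 2.99, each without overlap (exact permutation tests, adjusted p = 0.000337). Vegfb and Pgf fell relative to Flt1, by 2.51 and 2.08 on the log2 scale (exact permutation tests, adjusted p = 0.0105), although both ligands rose. Each of these ratios overlapped between genotypes, with 6 of 8 knockout libraries below all wild type libraries. Flt1 rose against Kdr by 1.28 (exact permutation test, adjusted p = 0.0105), with overlap and 4 of 8 knockout libraries above all wild type libraries. All ratios with Flt1 rest in part on low wild type counts, with 0 in WT 1 and 4 in WT 2 and WT 6. In those libraries the prior count of 2 weighs on the log2 value, so the sizes of these differences are uncertain. Nrp1 against Nrp2 differed by 0.24 and did not pass (exact permutation test, adjusted p = 0.185), except without WT 5, where it was 0.34 (adjusted p = 0.0307). Per kb, the summed ligands were 27.9 to 76.6 times the summed receptors in wild type libraries and 15.4 to 609 times in knockout libraries, highest in KO 2.

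Since the receptors are endothelial genes, their values were set beside blood endothelial markers. Of 17 such markers, 12 were tested, 10 rose and none fell, with a median log2 fold change of 3.29. Over all tested genes, 25.6% rose. Robo4 held at most 3 counts in each wild type library, and with its fold change set to the bound from that floor the median was also 3.29. Pecam1, an adhesion molecule of endothelial cells, rose from 0.867 ± 0.543 to 58.7 ± 52.5 CPM, whereas Tek, the angiopoietin receptor gene, differed by -0.08 (edgeR, adjusted p = 0.738). Summed endothelial markers were between 62.2 and 82.6 CPM in the wild type and between 106 and 733 CPM in the knockout, lowest in KO 2 and highest in KO 7. The wild type sum came mainly from Tek at 22.7, Eng at 12.6, Clec14a at 12.3, Erg at 9.91 and Esam at 6.89 CPM. Cdh5 was at 3.26 CPM and Pecam1 at 0.867 CPM there. Of those genes Esam, like Tek, did not pass (edgeR, adjusted p = 0.0953). Tie1, Robo4, Sox17, Cldn5 and Icam2 were at or under 3 counts in every wild type library. In whole tissue, more cells of a type and more RNA per cell cannot be told apart.

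Within the knockout, Flt1 and Kdr followed these markers from library to library. Flt4 was not included. The endothelial score is the mean log2 CPM of the 12 tested markers, and 22 relations of members within a genotype were computed, chosen after the data were seen, with adjustment over all 22. In the knockout, Kdr against the score had a Pearson r of 0.982 and a Spearman rho of 1.00 (exact permutation over 8 libraries, adjusted p = 0.000546 and 0.00109). Without the 2 libraries farthest from the median score r was 0.983. Flt1 had an r of 0.981 and a rho of 0.976 (exact permutation, adjusted p = 0.000546 and 0.00437), and r was 0.971 without 2 libraries. Nrp1 had an r of 0.912 (exact permutation, adjusted p = 0.0207) and a rho of 0.833 that did not pass (adjusted p = 0.0846). In the wild type, Kdr had an r of 0.947 and a rho of 0.905 (exact permutation, adjusted p = 0.00637 and 0.0335), and r was 0.780 without 2 libraries. Wild type Flt1 did not pass, with an r of 0.629 and a rho of 0.667 (exact permutation, adjusted p = 0.161 and 0.192). Vegfa ran the other way in the knockout without passing, with an r of -0.694 and a rho of -0.762 (exact permutation, adjusted p = 0.132 and 0.101). The points share their library and its scaling.

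**Figure D4:**
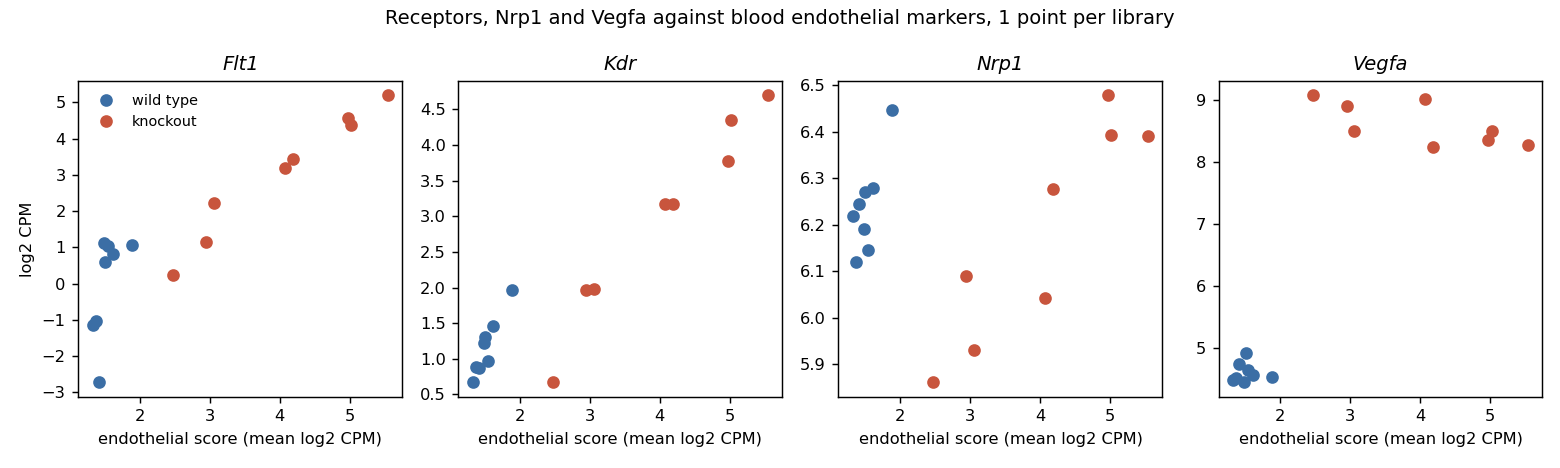
Log2 CPM of Flt1, Kdr, Nrp1 and Vegfa (y axes) against the endothelial score (x axis, mean log2 CPM of 12 markers), 1 point per library. The score does not overlap between the genotypes, and within the knockout Flt1 and Kdr climb with it while Vegfa does not.

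Relative to the endothelial score, Kdr was lower in every knockout library than in every wild type library (log2 difference -0.71, exact permutation test, adjusted p = 0.000337). Flt1 differed by 0.57 and did not pass (exact permutation test, adjusted p = 0.310). The size of each of these differences depended on the reference. With Cdh5 alone Flt1 was at 0.03 (exact permutation test, adjusted p = 0.930) and Kdr at -1.25 (adjusted p = 0.000404), and with Pecam1 alone Flt1 was at -2.17 (adjusted p = 0.00227) and Kdr at -3.45 (adjusted p = 0.000337). The log2 ratios of Nrp1 and Nrp2 to the score were lower by 2.57 and 2.81 (exact permutation tests, adjusted p = 0.000337). With Pecam1 alone as the reference their differences were -5.32 and -5.56. Nrp1 itself differed by only -0.04 and Nrp2 by -0.33, so these ratios mostly restate the rise of the markers. They do not show a fall of that size in the neuropilins. With the score as a covariate in the edgeR fit, Vegfa stayed past the threshold at 4.55 and Vegfd at 2.91. The differences of Vegfb (0.42, edgeR adjusted p = 0.180) and Pgf (0.33, adjusted p = 0.491) then did not pass, Flt1 was at -0.91 (adjusted p = 0.305) and Kdr at -1.15 (adjusted p = 0.00310). The score separates the genotypes completely, with 1.33 to 1.88 in wild type and 2.47 to 5.54 in knockout libraries. That fit assumes 1 slope of the score shared by both genotypes and extends it across the gap between them.

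Muscle markers moved with the receptors in part of the libraries. KO 6, 7 and 8 had both the highest muscle sums and the highest Flt1 and Kdr. Without these 3 libraries Flt1 was still higher in the knockout (log2 fold change 2.18, edgeR adjusted p = 0.0109), as was Kdr (1.29, adjusted p = 0.00713). WT 5 had 4602 CPM of muscle markers with 1.92 CPM of Flt1 and 3.75 CPM of Kdr, and KO 5 had 151 CPM of muscle markers with 4.55 CPM of Flt1 and 3.81 CPM of Kdr. With the muscle score as a covariate the log2 fold change was 2.45 for Flt1 (edgeR, adjusted p = 7.29e-04), 1.48 for Kdr (adjusted p = 0.00356) and 4.12 for Vegfa. Of 15 muscle markers, 1 rose, Myh2 at 2.87 (edgeR, adjusted p = 0.0174), and 14 did not pass, where 25.6% of all tested genes rose. Without WT 5, 5 rose, and without KO 6, 7 and 8 none did.

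Markers of other vessel cells differed in direction. The shares over all tested genes were 25.6% higher and 22.7% lower. Of 7 tested mural cell markers, 4 rose and 1 fell (Cspg4), with a median of 3.30, led by the pericyte gene Rgs5 at 6.11 (edgeR, adjusted p = 1.49e-04). Pdgfrb, at 150 ± 26.4 CPM in the wild type and 130 ± 35.9 CPM in the knockout, did not pass (-0.20, edgeR adjusted p = 0.279). Nor did Acta2 (0.66, edgeR adjusted p = 0.168). The Cspg4 call held in 8 of the 16 fits that left out 1 library each. All 5 tested erythroid markers rose, with a median of 3.63. Of 6 tested lymphatic markers, 1 rose, 2 fell (Lyve1 and Ccl21a) and 3 did not pass, with a median of -0.02. Ccl21a has near-identical gene copies, so its counts are uncertain. The hyaluronan receptor gene Lyve1 fell from 91.8 ± 19.7 to 34.1 ± 6.80 CPM (log2 difference -1.43, edgeR adjusted p = 8.86e-08). Prox1, the regulator of lymphatic identity, differed by 0.00 (edgeR, adjusted p = 0.994). Mmrn1 was nearly absent in both genotypes, with 0 counts in every wild type library and 6 counts over all knockout libraries. Foxc2, a gene of lymphatic valves, rose by 3.97 (edgeR, adjusted p = 4.96e-08). Lyve1 is also carried by tissue macrophages, of whose 9 markers 3 rose (Adgre1, Cd163 and Lyz2) and 6 did not pass.

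The genes around the family moved less evenly. Their counts stand beside shares over all tested genes of 25.6% higher and 22.7% lower. Among 13 genes for ligand processing and matrix binding, 5 rose, 2 fell and 6 did not pass (median 0.34). Without KO 6, 7 and 8, 2 rose. Adamts3, the protease that cleaves VEGF-C, fell from 89.8 ± 14.9 to 40.2 ± 7.79 CPM (log2 fold change -1.16, edgeR adjusted p = 3.23e-07). Ccbe1, the cofactor of that cleavage, rose by 1.56 (edgeR, adjusted p = 0.00639), from a low level and with overlap. The other genes that rose were Hspg2, Pcsk5 and Pcsk7, and Sdc2 was the other one that fell. The heparan sulfate carrier Gpc1 rose by 0.80 (edgeR, adjusted p = 7.86e-07), although its exons overlap those of Ankmy1 and its counts are uncertain. Among 22 tested genes of receptor signalling, 9 rose, 6 fell and 7 did not pass (median -0.04). Ptprb, a phosphatase of endothelial cells, was at 2.58 ± 1.61 CPM in wild type and 58.2 ± 56.5 CPM in knockout libraries (log2 fold change 4.52, edgeR adjusted p = 9.09e-05), and Nos3, the endothelial nitric oxide synthase, rose from 0.213 ± 0.193 to 9.37 ± 4.55 CPM (5.44, adjusted p = 4.60e-09), with exons that overlap Atg9b. Shb, an adaptor of VEGFR2, rose by 0.90. Pik3r1, a regulatory subunit of PI3 kinase, fell from 753 ± 114 to 339 ± 36.4 CPM (-1.15, edgeR adjusted p = 7.55e-09), and Dab2, an endocytic adaptor, differed by -0.26 (adjusted p = 0.00106).

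Of 14 genes known to respond to VEGF-A in endothelial cells, 12 were tested, of which 9 rose, 2 fell and 1 did not pass (median 1.13). For this list and the next, the shares over all tested genes were 25.6% higher and 22.7% lower. Apln, the ligand of the apelin receptor and also a hypoxia-responsive gene, was at 0.270 ± 0.156 CPM in wild type and 91.2 ± 26.2 CPM in knockout libraries (log2 fold change 8.34, edgeR adjusted p = 2.13e-14). Dusp5 rose by 1.98 (edgeR, adjusted p = 2.50e-08) and Nr4a2 by 1.06 (adjusted p = 2.57e-05). Hlx fell by 1.04 on the log2 scale (edgeR, adjusted p = 8.59e-08) and Spry4 by 0.71 (adjusted p = 3.91e-05). In the wild type Hlx was at 38.5 and Spry4 at 32.0 CPM, against 3.26 CPM for Cdh5. Which cells carried the genes of this list, and whether VEGF-A caused their differences, was not tested. The untested Dll4 (0.196 to 6.70 CPM) and Esm1 (0.0411 to 2.87 CPM) were higher in all 8 knockout libraries. Without the filter 11 genes of this list rose. Among 11 tested semaphorin and plexin genes, which share the neuropilins, 2 rose, 2 fell and 7 did not pass (median 0.07). Sema3f, a ligand of Nrp2, fell by 0.65 on the log2 scale (edgeR, adjusted p = 1.58e-04), and Plxnd1, a semaphorin receptor of endothelium, rose by 0.69 (adjusted p = 2.04e-04). Sema3a rose and Sema3b fell as the remaining calls. For comparison, all 15 listed HIF targets outside the family rose without overlap (median 3.15), against 10.8% of all tested genes. They ran from 0.48 for the demethylase gene Kdm3a to 6.40 for Car9, a carbonic anhydrase, with Egln3 at 6.08 and Adm at 4.68, so Vegfa at 4.04 was within their range.

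**Figure D5:**
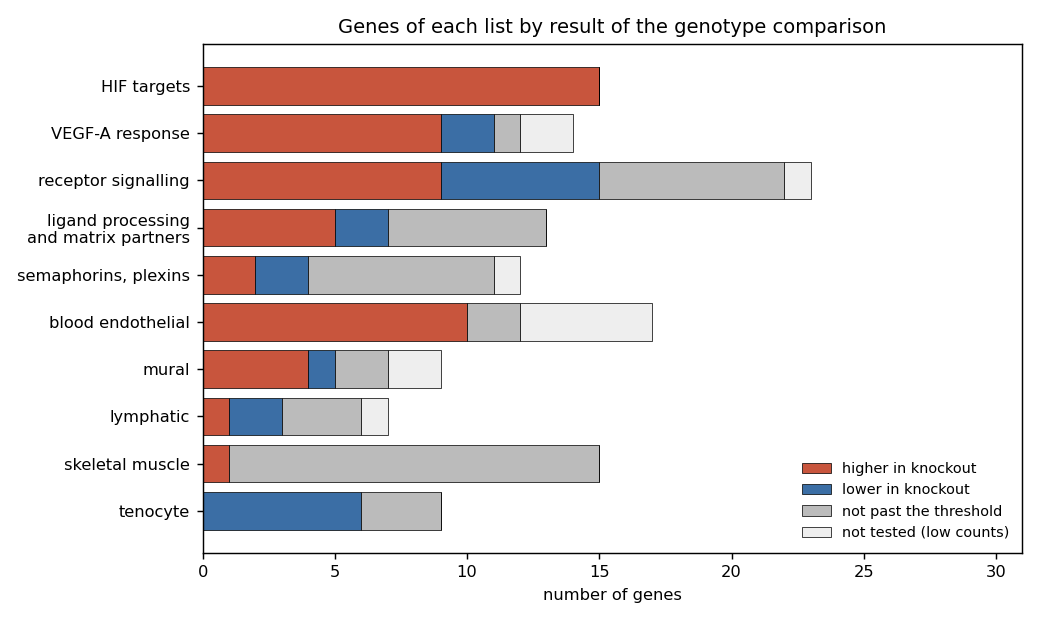
Number of genes (x axis) in each list that were higher, lower, not past the threshold or not tested in the knockout. All 15 HIF targets and 10 of 12 tested endothelial markers were higher, while signalling and semaphorin genes were divided. Over all tested genes, 25.6% were higher and 22.7% lower.

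The genes whose library-to-library pattern was most like a member's were found by Pearson correlation of log2 CPM over 16 libraries after each genotype's mean was subtracted. For Kdr these were Cdh5 at 0.970, Mcam at 0.966, Col4a1 at 0.964, Arhgef15 at 0.949 and Robo4 at 0.947. For Flt1 they were Cdh5 at 0.906, Mafa at 0.894, F11r at 0.893, Ablim3 at 0.891 and Adgrl4 at 0.884. Cdh5, the cadherin of endothelial junctions, thus headed both lists. For Vegfa they were Pck2 at 0.833, Tra2a at 0.829, Gsg1l at 0.824, Cdkn1b at 0.821 and Rnf112 at 0.816, and none of these is in the endothelial list.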

How the data were processed

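RNA was measured in 16 libraries of tail tendon fascicles, 8 per genotype, grouped by the genotype in their titles. The deposited files hold whole-number counts per Ensembl gene, 1 column per library, as matched counts per the file headers. The submitters' processing notes name kallisto, featureCounts and GRCm39, without their roles. Annotation and strand use are not given in the sources used here. Of 25719 identifiers, 25614 matched a symbol, and Ero1a was matched as Ero1l.

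Counts were tested in edgeR 4.0.16 (R 4.3.3) by its quasi-likelihood F test, with TMM, the default expression filter and genotype as the only term, two-sided, with Benjamini-Hochberg adjustment over 14803 tested genes and a threshold of 0.05. Log2 CPM used a prior count of 2. The floor of detection was 3 counts, and floors cover counting error only. The script was tested on simulated counts.

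Exon lengths came from GENCODE M21 and promoters from RefSeq GRCm38.p6, an older build than that of the counts, so no gene positions other than the promoter windows are given. All members and lists were chosen with earlier results of these data known. Named list genes are the called ones without overlap, up to 3 per direction with the largest change, and in cell type lists up to 3 with the highest level. Genes outside this rule (Kdm3a, Prox1, Foxc2, Mmrn1, Ccl21a, Cspg4, Adgre1, Cd163, Ccbe1, Hspg2, Pcsk5, Pcsk7, Sdc2, Sema3a, Sema3b, Tie1, Robo4, Sox17, Cldn5, Icam2) were chosen after their values were seen. The same holds for Clec14a, Erg, Esam, Acta2, Dll4 and Esm1. Of Schwann cell markers 1 of 6 tested rose and 5 did not pass, the single tested keratinocyte marker fell and the single tested adipocyte marker rose. With 1 library left out in turn, the Schwann call held in 8 of 16 fits and the keratinocyte call in 6 of 16.

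Alternatives were DESeq2 1.42.0 (size factors and Wald test), total counts, no filter, a mean count of at least 10, limma-voom (limma 3.58.1) with quality weights, the replicate number as a block, muscle, endothelial and Y-linked levels as covariates, each library left out in turn, a prior count of 0.5 and other endothelial references.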

Additional observations from a re-analysis of the deposited data

Results flagged for a closer look

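The lowest and highest library of each group of 8 was checked in 46 groups, and 2 highest libraries stood apart from the rest of their group. Chance gives about 1 in 20, so 2 of 46 is no more than chance alone would give. Vegfd was at 6.87 CPM in WT 3, and the other wild type libraries were between 3.48 and 4.92 CPM. Nrp1 was at 87.0 CPM in WT 5, and the other wild type libraries were between 69.4 and 77.5 CPM. WT 5 also had the highest wild type sum of muscle markers, at 4602 CPM. Without WT 5 the log2 difference of Nrp1 between genotypes was -0.013 (edgeR, adjusted p = 0.913). In the fit that included the muscle score it was -0.15 and did not pass either.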

How the results depend on the processing

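The calls of Vegfa, Vegfd, Vegfb, Pgf, Flt1 and Kdr held under each alternative run except the endothelial score as a covariate, where Vegfa and Vegfd alone held. In that fit 2 members were higher, and log2 differences were 0.42 for Vegfb, 0.33 for Pgf, -0.91 for Flt1, -0.63 for Vegfc and -0.32 for Nrp2, none past the threshold, and -1.15 for Kdr and -0.55 for Nrp1, both past it as lower. With total counts they were -0.15 for Vegfc, 0.26 for Nrp1 and -0.0105 for Nrp2, and 0 members were lower. List counts also moved there: processing genes had 10 higher and 1 lower, signalling genes 14 higher and 1 lower, and semaphorin genes 7 higher. With the muscle score, Nrp2 was at -0.26 and 1 member was lower. Without KO 6, 7 and 8, a setting chosen after the data were seen, as were the transcript lengths below, Nrp1 was at -0.20, Nrp2 at -0.34 and 2 processing genes were higher. Leaving out each library in turn gave -0.53 to -0.38 for Vegfc, -0.39 to -0.27 for Nrp2, 0.17 to 0.34 for Nrp1 over Nrp2, 1 to 2 members lower and 2 to 4 semaphorin genes higher (4 without KO 5). Flt1 over the endothelial reference was -2.17 with Pecam1, and Kdr was -1.25 with Cdh5 and -3.45 with Pecam1. The cause of these changes was not tested. Replicate numbers are shared between genotypes, but same-numbered libraries correlated at -0.397 to 0.394, with 3 of 8 over 0.1. No general pairing by number was seen, although such correlations cannot exclude one where muscle and endothelial markers also differ between libraries. With the replicate number as a block, Vegfa was at 4.01, Flt1 at 3.12, Kdr at 1.95, Vegfc at -0.47 and Nrp2 at -0.30, with no member's call changed. Flt4 could be tested in only 2 settings, without the filter and with a mean count of at least 10. With the longest coding transcript as length, both neuropilins were above Vegfd in the knockout. Of 460 counts of marker genes over all alternatives, 410 were within 1.5 times their reported value. Low counts limit Flt4, with 3 counts in the wild type.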
